A study of Homo sapiens with 12 samples.

Results

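The interferon-stimulated genes are a set of 38 listed human genes whose transcription is known to be switched on by interferons. One probe set stood for each gene, the one with the highest mean over the 12 arrays among probe sets that name a single gene. Of the 38 genes, 37 were measured in this way, out of 19775 genes in the whole table, and STAT2 was not analysed here. A gene entered the tests when 3 or more of its arrays had a log2 value of at least 4, which held for 31 of the 37 and for 10784 genes of the table. Of these 31, 27 reached 4 on all 12 arrays and 30 on at least 1 array of every group. USP18 passed through all 3 Fk 12 h arrays and 1 control 12 h array.

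Affymetrix arrays were used to measure RNA of HK-2 cells, a line immortalized from the epithelium of the human kidney's proximal tubule. The groups were cells with the treatment labelled Fk for 12 h, control vehicle for 12 h, Fk for 48 h and control vehicle for 48 h, with 3 arrays each that the labels call biological replicates. Cells of every group were seeded 24 h before treatment. The labels do not expand the name Fk and the dose was not used here. All the groups come from a single cell line, so they stand for 1 genetic background. Precision was limited by the number of arrays: for the tested members, 95% intervals of a change reached a median of 0.769 log2 units to either side.

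Interferons bind receptors on the cell surface whose JAK kinases activate STAT proteins. STAT proteins together with IRF9 bind the interferon-stimulated response element, or ISRE, in the promoters of antiviral genes, while STAT dimers bind the gamma-activated site, or GAS. The products degrade or bind viral RNA, block viral entry or release, attach the ubiquitin-like protein ISG15 to other proteins, sense viral RNA, or prepare peptides for presentation to T cells. Epithelial cells, renal ones included, can mount this response without immune cells.

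The promoters of genes that the results turn on are shown because they carry the letters through which the family is known to respond. RefSeq windows (GRCh38.p14) of 250 bases before to 50 bases after the gene's start were found for 30 of the 37 measured genes. They were not matched for OASL, OAS2, IFIT2, MX2, TRIM22, IRF7 and USP18. The letters of the ISRE, searched on both strands as GAAA, any 2 bases and GAAA again, stood in 19 of the 30 windows (63.3%), against 3.57% of all 35116 promoter windows. The letters TTCNNNGAA, those of the GAS, which read the same on both strands, stood in 9 of the 30 (30.0%), against 7.66% of all windows. At 3 GAS positions, in IFITM1, BST2 and IFI27, the letters overlapped those of an ISRE. The 250 bases before the start are printed 5′ to 3′ on the gene's own strand, with the ISRE letters in capitals, for 3 genes with high values in Fk cultures at 12 h and for OAS3, which differed between the control times. HERC5 lies on the plus strand (chr4:88456869-88457118), IFI44 on the plus strand (chr1:78649539-78649788), IFIH1 on the minus strand (chr2:162318685-162318934) and OAS3 on the plus strand (chr12:112938224-112938473).
HERC5: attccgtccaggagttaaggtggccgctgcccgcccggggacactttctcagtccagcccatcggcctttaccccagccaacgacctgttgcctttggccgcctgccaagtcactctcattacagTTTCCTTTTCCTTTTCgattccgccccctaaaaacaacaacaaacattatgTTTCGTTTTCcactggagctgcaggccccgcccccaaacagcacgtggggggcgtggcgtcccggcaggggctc
IFI44: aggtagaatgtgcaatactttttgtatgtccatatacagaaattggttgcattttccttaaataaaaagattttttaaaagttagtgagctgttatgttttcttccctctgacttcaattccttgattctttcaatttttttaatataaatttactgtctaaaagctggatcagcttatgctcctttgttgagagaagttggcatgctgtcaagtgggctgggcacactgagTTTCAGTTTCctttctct
IFIH1: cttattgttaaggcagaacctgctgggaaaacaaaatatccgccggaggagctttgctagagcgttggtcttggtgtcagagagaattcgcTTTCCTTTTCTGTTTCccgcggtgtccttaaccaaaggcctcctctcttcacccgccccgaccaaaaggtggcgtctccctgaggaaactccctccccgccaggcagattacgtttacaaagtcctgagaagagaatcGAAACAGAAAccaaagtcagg
OAS3: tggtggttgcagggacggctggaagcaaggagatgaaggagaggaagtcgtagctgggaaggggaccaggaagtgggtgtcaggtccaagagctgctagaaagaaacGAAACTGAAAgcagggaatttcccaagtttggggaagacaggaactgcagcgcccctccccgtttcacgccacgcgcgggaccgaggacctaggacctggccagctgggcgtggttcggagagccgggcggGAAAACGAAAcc
The first base of the capitals lay 125, 119 and 74 bases before the start in HERC5, 18 bases before it in IFI44, 159, 153 and 21 bases before it in IFIH1, and 143 and 12 bases before it in OAS3. The first pair of positions overlapped in HERC5 and in IFIH1.

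The promoters of IRF1 and IRF9, which encode transcription factors of the interferon response, are shown with the GAS letters in capitals, since the ISRE letters were not in these windows. IRF1 lies on the minus strand (chr5:132490774-132491023) and IRF9 on the plus strand (chr14:24161015-24161264).
IRF1: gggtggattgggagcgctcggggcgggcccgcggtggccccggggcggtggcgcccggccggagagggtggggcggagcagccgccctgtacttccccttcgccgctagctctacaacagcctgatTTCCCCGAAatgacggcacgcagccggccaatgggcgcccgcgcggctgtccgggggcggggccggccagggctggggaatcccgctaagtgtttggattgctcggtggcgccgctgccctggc
IRF9: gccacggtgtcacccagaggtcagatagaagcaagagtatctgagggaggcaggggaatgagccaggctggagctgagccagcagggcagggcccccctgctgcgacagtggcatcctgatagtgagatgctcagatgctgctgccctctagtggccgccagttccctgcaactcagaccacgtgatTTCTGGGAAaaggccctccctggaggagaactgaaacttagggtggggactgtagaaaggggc
The GAS letters began 124 bases before the start in IRF1 and 63 bases before it in IRF9. Among tested members, the 17 with ISRE letters had a median Fk minus control change of +0.17 at 12 h and +0.05 at 48 h, and the 10 without them had medians of +0.29 and -0.17. Among these 10, the windows of OAS1, RIGI and IFI35 hold GAAA, a single base and GAAA, a spacing that was not searched. The medians describe the windows and letters searched and were not tested.

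On Fk 12 h replicate 3, 1091 genes lay more than 1 log2 unit below the mean of replicates 1 and 2, and 569 lay as far above. The control probe set for 28S ribosomal RNA read 14.38 on this array, against 8.50 to 10.29 on the remaining 11. The tested members were low on it: 8 of 31 (25.8%) lay more than 1 unit below replicates 1 and 2, against 10.1% of all genes tested, and 0 lay as far above. The mean log2 level of the poly-A spike-ins, bacterial RNAs added during labelling, was 8.20 to 8.47 on the Fk 12 h arrays, against 7.26 to 8.11 on the control 12 h arrays. At 48 h it was 7.35 to 8.57 with Fk and 7.52 to 7.65 in control cultures. Of markers of cultured renal epithelium, 7 of 7 were between 9.97 and 14.72 on all arrays, while of 8 proximal tubule markers only GGT1 reached 4. Leukocyte markers reached 4 in 0 of 5 cases, endothelial ones in 1 of 4 (PECAM1) and fibroblast ones in 2 of 4 (COL1A1 and DCN). Of 4 markers of plasmacytoid dendritic cells, strong interferon producers, CLEC4C and IL3RA stayed below 4 on all arrays. LILRA4 was between 4.39 and 5.44 on all arrays, and TCF4 reached 4 on Fk 12 h replicate 3 (5.28) and control 12 h replicate 3 (4.42). The summed level of the 4 was 13.4 to 15.9 with Fk at 12 h and 13.7 to 14.7 in control cultures at 12 h, so the groups overlapped. Fewer responding cells and less RNA per cell cannot be told apart in these bulk samples.

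At 12 h, no interferon-stimulated gene passed the threshold, but most tested members had a positive change with Fk. In limma, with Benjamini-Hochberg adjustment over the 10784 genes tested and a threshold of 0.05, 0 of 31 members and 0 genes in all were called (0%). At an unadjusted p under 0.05, 6 members (19.4%) differed, against 6.71% of all genes. All 6 were higher in Fk cultures, against 4.4% of all genes, and 0 were lower, against 2.32%. USP18, among the 6, entered the tests mainly through the Fk 12 h arrays, where it was high. With a filter at log2 5, which USP18 did not reach, 5 of 30 members were higher at this level and 0 lower. In that fit 688 of 10123 genes differed in either direction. The change was above 0 for 25 of 31 members (80.6%), against 53.2% of all genes, with a median of +0.22, against +0.01 over all genes. For 7 members (OASL, HERC5, USP18, IFI44, IFIH1, IRF1 and IRF9) every Fk array was above every control array, against 9.91% of all genes, and for 0 every one was below, against 6.49%. With the filter at log2 5, which left out USP18, the change was above 0 for 24 of 30. The members were chosen with earlier results of these data known, so these shares describe the list and do not test it. Without Fk 12 h replicate 3 the member median was +0.39, with 27 of 31 positive and 0 called. When arrays were weighted by their quality (0.121 for that array), limma called 4 of 31 members (DDX60, HERC5, IFIT2 and OASL), against 1.45% of all genes. With the spike-in level added as a covariate the median was +0.05, with 17 of 31 positive. At an unadjusted p under 0.05, 1 member then differed, against 507 of 10784 genes. At 12 h every Fk array had a higher spike-in level than every control array. A change with Fk and one with the spike-in level thus cannot be told apart there.

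**Figure D1:**
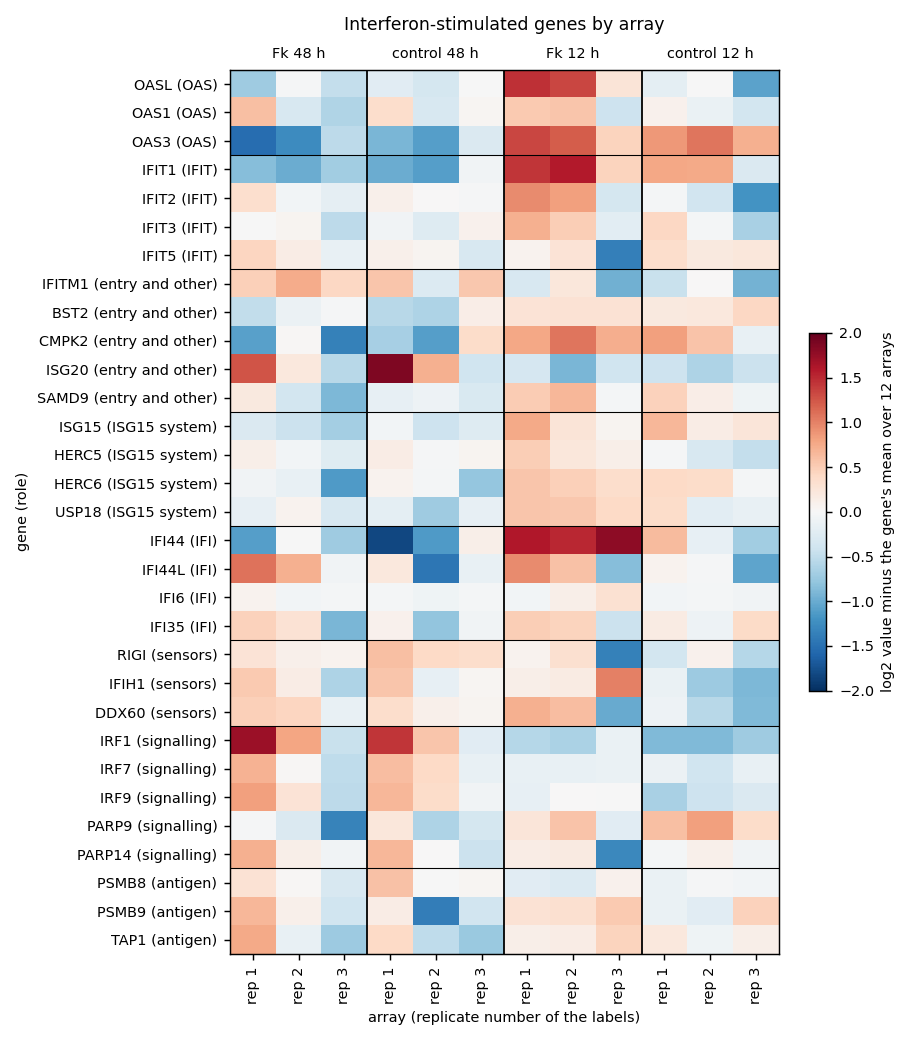
Deviation of each tested member from its own mean over the 12 arrays, on the log2 scale, with genes in rows by role and arrays in columns by group (Fk 48 h, control 48 h, Fk 12 h, control 12 h). OASL, OAS3, IFIT1, IFIT2 and IFI44 were high on Fk 12 h replicates 1 and 2. On Fk 12 h replicate 3, 8 members were more than 1 unit lower than on these, while IFI44 was highest there. The deviations also hold change over time: in control cultures OAS3 changed by -1.65 and IFIT1 by -1.14 from 12 h to 48 h.

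Among the antiviral effectors of the OAS family, which sense double-stranded RNA and make the messenger that activates RNA cleavage, OASL showed the change with the smallest p at 12 h. OASL, a family member without that enzyme activity, had log2 values of 6.40, 6.27 and 5.19 on the Fk 12 h arrays, against 4.74, 4.93 and 3.86 on the control 12 h arrays. Every Fk array was above every control array. The change was +1.44 ± 0.35 (SE), a 2.72-fold difference, with a limma adjusted p of 0.575. It was +1.82 without Fk 12 h replicate 3 and +1.41 with the poly-A covariate. A second probe set of the gene gave +2.28. OAS3 had 8.99, 8.87 and 8.10 with Fk at 12 h, against 8.52, 8.73 and 8.36 in control cultures, and the groups overlapped. OAS1 had a change of +0.36 ± 0.34, or +0.05 with the poly-A covariate. OAS2 stayed between 2.77 and 3.27 on all arrays and was not tested.

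The IFIT genes encode proteins that bind viral RNA and block its translation. IFIT2 had 9.04, 8.91 and 7.74 on the Fk 12 h arrays, against 8.05, 7.71 and 6.89 on the control 12 h arrays. The low Fk array lay among the control arrays, so the groups overlapped. The change was +1.01 ± 0.36 (limma adjusted p = 0.673), or +1.42 without Fk 12 h replicate 3 and +0.80 with the poly-A covariate. A second IFIT2 probe set gave +0.75 at 12 h and +0.70 at 48 h, where the one used gave +0.01. IFIT3 had 10.68, 10.47 and 9.76 with Fk, against 10.39, 9.93 and 9.31 in control cultures, and again the groups overlapped. Its change was +0.42, or +0.06 with the poly-A covariate. IFIT1 had a change of +0.73 ± 0.38, which was +0.38 without control 12 h replicate 3 and +1.09 without Fk 12 h replicate 3. It was +0.83 with the poly-A covariate. IFIT5 had a change of -0.60 ± 0.36, which was -0.08 without Fk 12 h replicate 3.

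In the ISG15 group, HERC5, the ligase that attaches ISG15 to newly made proteins, had 10.37, 10.10 and 10.00 with Fk at 12 h, against 9.85, 9.56 and 9.41 in control cultures. The groups did not overlap. The change was +0.55 ± 0.15 (limma adjusted p = 0.654), or +0.63 without Fk 12 h replicate 3 and +0.36 with the poly-A covariate. USP18, the protease that removes ISG15 and dampens interferon receptor signalling, had 4.32, 4.30 and 4.17 with Fk, against 4.13, 3.55 and 3.61 in control cultures, a change of +0.50 ± 0.20. Its Fk arrays were all above its control arrays, and its change was +0.23 with the poly-A covariate. ISG15 itself had 11.67, 11.16 and 10.96 with Fk at 12 h, against 11.58, 11.06 and 11.15 in control cultures, a change of 0.00 ± 0.21. HERC6 had a change of +0.22 ± 0.30.

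IFI44, a cytoplasmic protein induced by interferon, had 8.16, 8.06 and 8.34 on the Fk 12 h arrays, against 7.18, 6.39 and 5.85 on the control 12 h arrays. The Fk arrays lay close together and all above the control arrays, and Fk replicate 3, low for many members, was the highest. The change was +1.71 ± 0.48 (limma adjusted p = 0.654), a 3.28-fold difference, or +1.39 with the poly-A covariate. IFI35, which takes part in interferon signalling, had 7.69, 7.64 and 6.77 with Fk, against 7.35, 7.10 and 7.58 in control cultures, with overlap of the groups. IFI44L had a change of +0.57 ± 0.56 and IFI6, a protein of the mitochondria and endoplasmic reticulum, one of +0.17 ± 0.11. IFI27 stayed between 2.05 and 2.08 and was not tested.

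Among the factors that act on entry, release or nucleotides, no tested member differed by 0.5 or more at 12 h. BST2, or tetherin, which holds budding virus at the cell surface, had 10.11, 10.12 and 10.12 with Fk, against 10.02, 10.04 and 10.25 in control cultures. The groups overlapped. CMPK2, IFITM1, ISG20 and SAMD9 had changes between -0.06 and +0.44. RSAD2, or viperin, which makes an antiviral nucleotide, reached 4 only on 2 arrays, both Fk at 12 h, and was not tested. MX1, MX2 and TRIM22 stayed below 4 on every array.

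The sensors of viral RNA are the helicases RIGI, IFIH1 (MDA5) and DDX60. IFIH1 had 7.42, 7.46 and 8.30 on the Fk 12 h arrays, against 7.15, 6.56 and 6.39 on the control 12 h arrays. The groups did not overlap. The change was +1.03 ± 0.35 (limma adjusted p = 0.673), and it was +0.74 without Fk 12 h replicate 3, the array with the highest value, or +0.37 with the poly-A covariate. DDX60 had 9.64, 9.56 and 7.94 with Fk, against 8.83, 8.38 and 8.05 in control cultures, and Fk replicate 3 lay below all the control arrays. Its change was +0.63 ± 0.40, or +1.18 without that array and +0.31 with the poly-A covariate. RIGI had a change of -0.03 ± 0.36, and its other probe sets gave -0.24 and +0.35. It was +0.48 without Fk 12 h replicate 3 and -0.35 without Fk 12 h replicate 2.

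Of the transcription factors and signalling genes, IRF1 had 7.83, 7.78 and 8.27 on the Fk 12 h arrays, against 7.52, 7.51 and 7.69 on the control 12 h arrays. The Fk arrays were all above, by a mean of +0.39 ± 0.50. This SE rests on the spread in all groups, and the 48 h arrays of IRF1 were more scattered. IRF9, the DNA-binding partner of STAT proteins, also had a change of +0.39, with every Fk array above every control array. With the poly-A covariate these changes were -0.38 for IRF1 and -0.01 for IRF9. IRF7 had +0.08, and the ADP-ribosyltransferase genes PARP9 and PARP14 had -0.40 and -0.32, or -0.19 and +0.17 without Fk 12 h replicate 3. Among the antigen processing genes, PSMB8, a subunit of the immunoproteasome, had 9.59, 9.54 and 9.91 with Fk, against 9.70, 9.80 and 9.78 in control cultures, with overlap. PSMB9, its partner subunit, and the peptide transporter gene TAP1 had changes of +0.35 and +0.16.

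**Figure D2:**
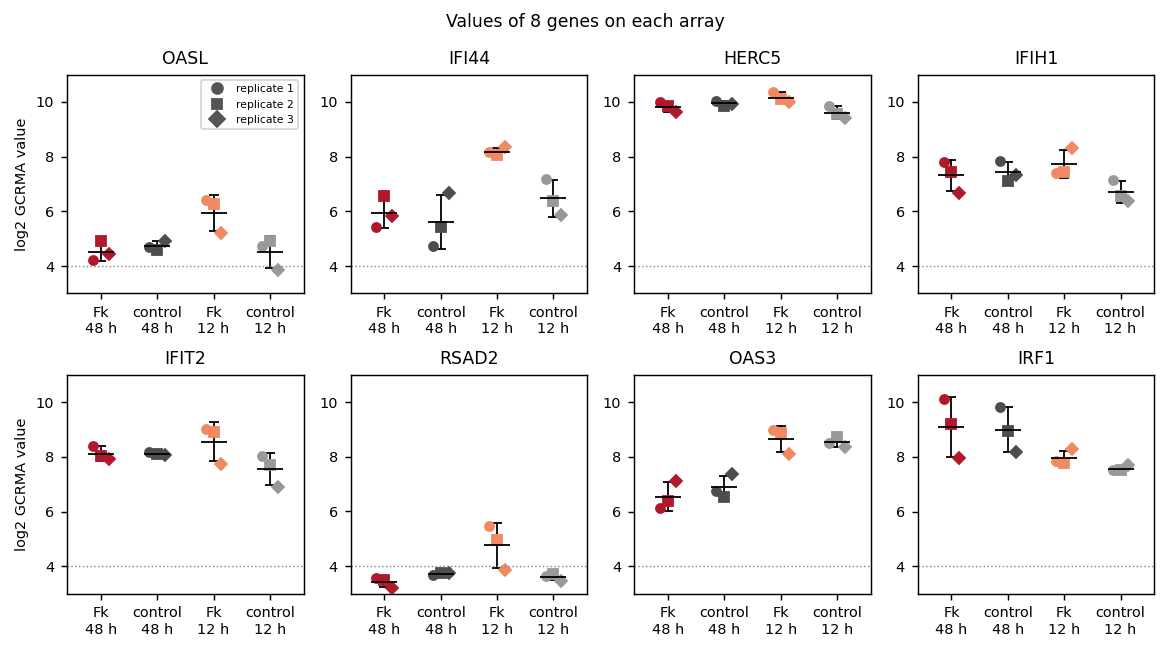
Log2 values of 8 genes on each array (points, shape by replicate number), with group mean and SD as black bars and the testing level of 4 as a dotted line. The Fk 12 h arrays lay above all control 12 h arrays for OASL, IFI44, HERC5, IFIH1 and IRF1, as for 9.91% of all genes tested. They also did for RSAD2, which was not tested and reached 4 only on 2 arrays, both Fk at 12 h.

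At 48 h, the members' changes with Fk were of both signs and none was called. In limma 0 of 31 members and 0 genes in all (0%) were called, and 0 members had an unadjusted p under 0.05, against 5.18% of all genes, 3.24% higher and 1.95% lower. The change was above 0 for 14 of 31 (45.2%), against 53.8% of all genes, with a median of -0.12, against +0.02 over all genes. The Fk arrays were all higher for 0 members, against 6.14% of all genes, and all lower for 1, RIGI, against 4.02%. The RIGI change was -0.30, and its other probe sets gave -0.14 and +0.05. Without Fk 48 h replicate 3, the array with the lowest members, the median was +0.11, and without control 48 h replicate 1 it was +0.04.

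OASL had 4.22, 4.91 and 4.46 on the Fk 48 h arrays, against 4.70, 4.58 and 4.92 on the control 48 h arrays. IFI44 had 5.44, 6.54 and 5.83 with Fk, against 4.72, 5.41 and 6.66 in control cultures, and HERC5 had 10.00, 9.83 and 9.64 with Fk, against 10.03, 9.87 and 9.94 in control cultures. The groups overlapped for each of them, with changes of -0.20 ± 0.35, +0.34 ± 0.48 and -0.12 ± 0.15. IFI44L, a paralogue of IFI44, had the smallest p at 48 h, with 6.04, 5.66 and 4.88 in Fk cultures, against 5.15, 3.51 and 4.80 in control cultures. The change was +1.04 ± 0.56 (limma adjusted p = 1), or +0.55 without control 48 h replicate 2, and the groups overlapped.

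PSMB9 had 8.51, 7.94 and 7.43 with Fk at 48 h, against 7.99, 6.46 and 7.46 in control cultures, a change of +0.66 ± 0.38, or +0.24 without control 48 h replicate 2. USP18 had 3.61, 3.84 and 3.45 with Fk, against 3.57, 3.05 and 3.61 in control cultures, and ISG15 had 10.62, 10.47 and 10.22 with Fk, against 10.86, 10.50 and 10.64 in control cultures. PSMB8 had 10.11, 9.86 and 9.50 with Fk, against 10.41, 9.82 and 9.87 in control cultures. The groups overlapped for these genes, with changes of +0.22 for USP18, -0.23 for ISG15 and -0.21 for PSMB8. By role, the OAS genes tested (3 of 3) had negative changes and the IFI genes tested (4 of 4) positive ones, with medians of -0.20 and +0.28. The IFIT, sensor, signalling and antigen processing groups had both signs.

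The change with Fk was lower at 48 h than at 12 h for 22 of 31 members and higher for 9 (29%), against 51.6% of all genes higher. In the limma test of this difference 0 members were called (0% of all genes). At an unadjusted p under 0.05, 3 members differed, against 3.31% of all genes. The Fk effect at 48 h was lower for all 3, against 1.98% of all genes, and higher for 0, against 1.33%. They were OASL, with a difference of -1.65 ± 0.50, IFIH1, with -1.15 ± 0.49, and HERC5, with -0.67 ± 0.22. In the mean over both times limma called 0 members (0.00927% of all genes). The change was positive for 22 of 31, against 54.1% of all genes. OASL, USP18 and IFI44 were higher at an unadjusted p under 0.05, against 5.35% of all genes. With the filter at log2 5, which left out USP18, 2 of 30 members were higher at this level.

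**Figure D3:**
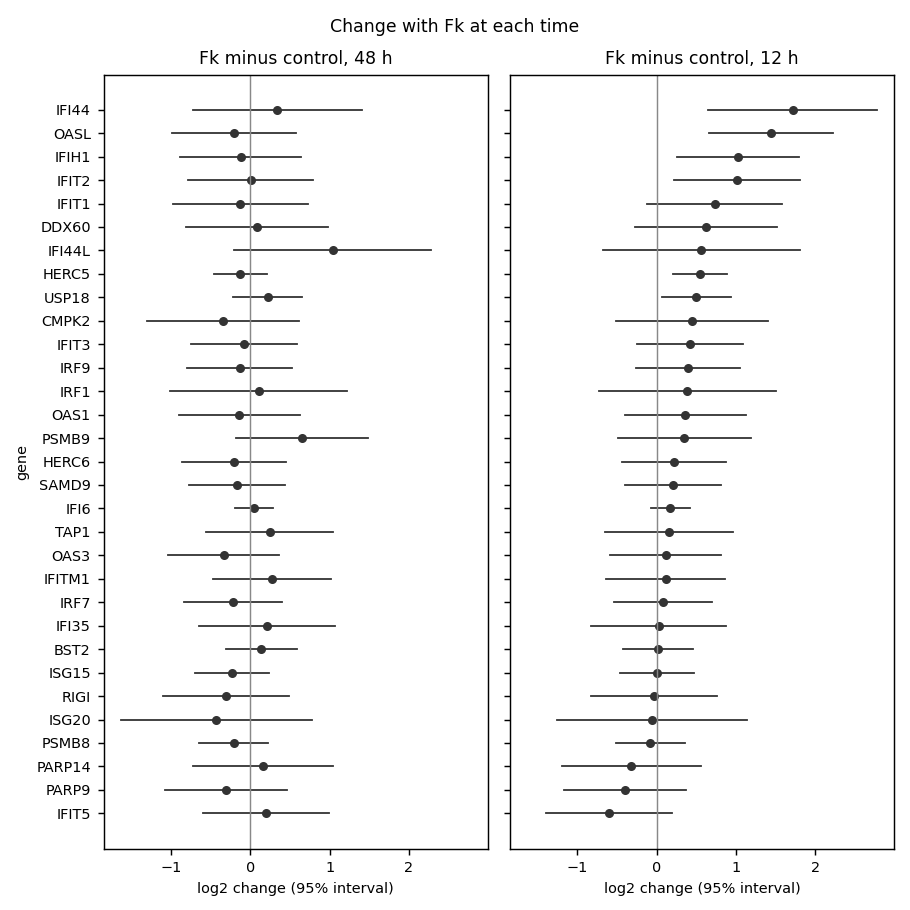
Fk minus control change of each tested member at 48 h (left) and 12 h (right), in log2 units with the 95% interval of limma, genes ordered by the 12 h change. At 12 h the intervals of 6 genes lay above 0, and at 48 h the intervals of all 31 genes crossed 0.

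In the control cultures, OAS3 fell between 12 h and 48 h and was the only member called. It had 6.74, 6.55 and 7.37 on the control 48 h arrays, against 8.52, 8.73 and 8.36 on the control 12 h arrays. The groups did not overlap. The change was -1.65 ± 0.32 (limma adjusted p = 0.00657), and OAS3 was called under all 25 alternatives that gave this comparison, with adjusted p between 8.03e-05 and 0.0317. In the table as a whole 21.5% of genes were called, 10.6% higher and 10.9% lower at 48 h. At an unadjusted p under 0.05, 8 members (25.8%) differed, against 36.4% of all genes. The members' median change was -0.01, and 15 of 31 (48.4%) were positive, against 51.5% of all genes.

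Other members had changes of both signs over time in control cultures, with no other call. BST2 had 9.27, 9.21 and 9.97 at 48 h, against 10.02, 10.04 and 10.25 at 12 h, a change of -0.62 ± 0.20 (limma adjusted p = 0.05, just over the threshold). IFIT1 had a change of -1.14 ± 0.38 and ISG15 one of -0.59 ± 0.21 (adjusted p = 0.0574 and 0.067 in limma). IRF1 had 9.83, 8.96 and 8.18 at 48 h, against 7.52, 7.51 and 7.69 at 12 h, and every 48 h array was higher. Its change was +1.41 ± 0.50 (adjusted p = 0.0697 in limma), and IRF9 had +0.77 ± 0.30. The 3 sensors had changes between +0.68 and +0.74, without a call. Every 48 h array was above every 12 h array for 8 members, against 25.1% of all genes, and below for 6, against 24.9%. The count of called members depended on single arrays: it was 7 without control 48 h replicate 3, 6 without Fk 12 h replicate 3, 4 without Fk 48 h replicate 1 or Fk 48 h replicate 3, and 2 without Fk 12 h replicate 1 or control 12 h replicate 3. The first pair of counts, 22.6% and 19.4% of the tested members, stood beside 24.8% and 31.9% of all genes called in the same fits. The counts of 4 (12.9%) stood beside 23.0% and 23.5%, and the counts of 2 (6.45%) beside 19.5% and 9.83%.

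**Figure D4:**
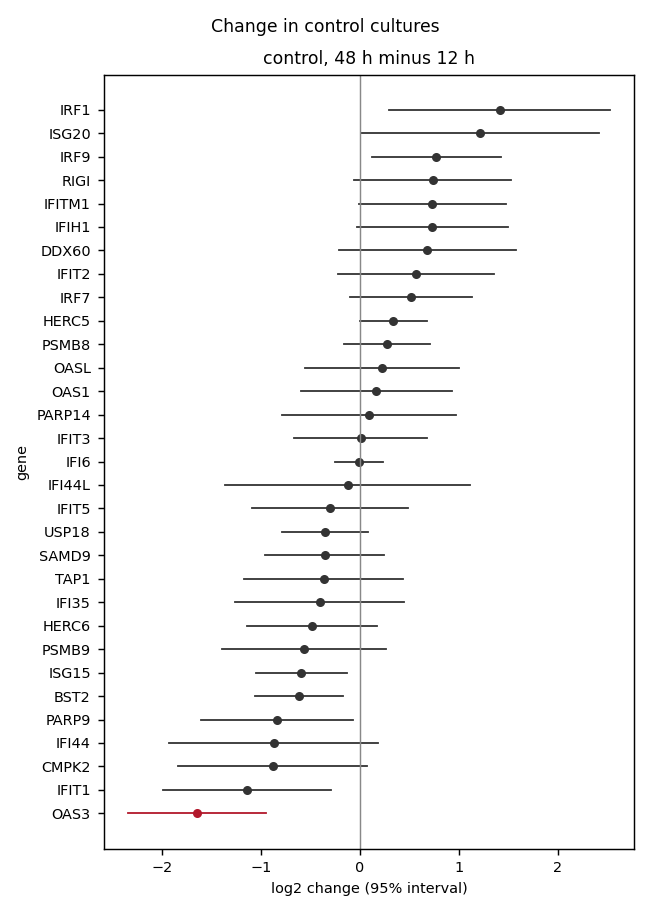
Change of each tested member in control cultures, 48 h minus 12 h, in log2 units with the 95% interval of limma and the called gene in red. OAS3 lay lowest at -1.65 and IRF1 highest at +1.41.

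The arrays of 1 group differed in how high the whole set was. At 48 h, 20 of 31 members (64.5%) were highest on replicate 1 in both the Fk and the control group, against 27.6% of all genes, and 12 (38.7%) were lowest on replicate 3 in both, against 25.7%. IRF1 showed this, with 10.12, 9.20 and 7.96 on the Fk 48 h arrays beside the control values above. The median deviation of the members on an array ran from -0.50 to +0.29 with Fk at 48 h and from -0.26 to +0.15 in control cultures at 48 h. At 12 h it ran from -0.01 to +0.49 with Fk and from -0.16 to +0.07 in control cultures.

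**Figure D5:**
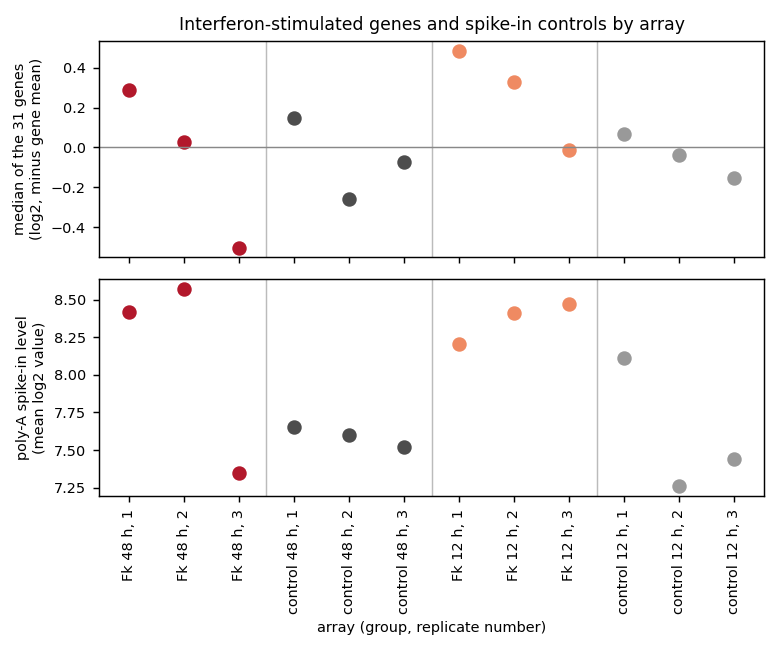
Median deviation of the 31 tested members from their gene means (top, log2 units) and mean log2 level of the poly-A spike-ins (bottom) on each array, coloured by group. The Fk 12 h arrays had spike-in levels of 8.20 to 8.47, above the 7.26 to 8.11 of the control 12 h arrays.

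Genes around the set were read from lists of ligands, receptors, relays and regulators. The interferon genes themselves, 7 measured, stayed between 2.03 and 2.59 on all arrays, and 0 were tested. Of the receptors and kinases 7 were tested, of the sensing and relay genes 7, of the negative regulators 7, of other antiviral genes 18 and of class I presentation genes 15, and limma called 0 of them with Fk at either time. At 12 h, PLSCR1, a phospholipid scramblase with antiviral activity, had a change of +0.35 (unadjusted p = 0.00706) and TLR3, an endosomal receptor of double-stranded RNA, one of +0.86 (unadjusted p = 0.0345). IFNGR1, a receptor chain for interferon gamma, had +0.30 at 12 h, and IFNAR2, a receptor chain for type I interferons, had +0.45 at 48 h. These lists had both signs. At 12 h the receptors and kinases had 4 positive and 3 negative changes, from -0.72 to +0.30, with 0 at an unadjusted p under 0.05. The negative regulators had 3 and 4, from -1.04 to +0.13, and the other antiviral genes 9 and 9. At 48 h these counts were 4 and 3, 4 and 3, and 15 and 3. The sensing and relay genes had 5 positive and 2 negative changes at 12 h, and 6 and 1 at 48 h. Class I presentation genes had 12 and 3 at both times, with medians of +0.03 and +0.12. Over all genes 53.2% were positive at 12 h and 53.8% at 48 h. In control cultures at 48 h against 12 h, limma called 1 receptor or kinase gene higher and 1 lower, 0 and 2 of the sensing and relay genes, and 2 and 4 of the 18 other antiviral genes, against 10.6% of all genes higher and 10.9% lower.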

How the data were processed

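RNA of 12 HK-2 cultures was measured on Affymetrix arrays. The deposited values are log2 values per probe set, made by the authors with GCRMA per the submitters' processing notes, and log2 by their range. Its version is not given in the sources used here, nor whether other arrays were normalized with these. GCRMA normally equalizes the distributions of arrays, which removes a change shared by most genes. Symbols came from the platform annotation, updated through gene IDs: of 54675 probe sets 41097 named 1 gene, 1801 several and 11777 none.

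A limma 3.58.1 model (R 4.3.3) gave each group of the 12 arrays its mean and moderated variances by eBayes, with 8 residual degrees of freedom and 2.44 prior ones. The SE and interval of each change thus rest on a spread shared by all groups and both times, not on the arrays compared alone. The model was two-sided and was tested on simulated data. Figures used matplotlib 3.10.9. The members and lists were chosen with earlier results of these data known. Values on every array are given for members that were called, for the 5 with the smallest p where none was, for OASL, IFI44 and HERC5, and for the brightest member of each role. The promoters printed were chosen after values were seen. Of genes outside the set, those with the smallest p are named, up to 4.

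Same-numbered arrays deviated together with r = 0.041, 0.265 and 0.163 at 12 h and 0.798, -0.025 and 0.606 at 48 h. Arrays with unlike numbers had r from -0.225 to 0.0221 at 12 h and from -0.703 to 0.149 at 48 h. The labels do not state a pairing, and the main fit did not use the numbers. A deviation shared by same-numbered arrays, seen at 48 h for replicates 1 and 3, thus stayed in its error. Blocks on the number were run as alternatives. Of 26 alternatives, 24 were planned, 2 were chosen after seeing the data, and 12 left out 1 array.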

Additional observations from a re-analysis of the deposited data

Results flagged for a closer look

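RSAD2, which encodes viperin, was not tested, since it reached a log2 value of 4 on only 2 arrays. Every Fk 12 h array (5.46, 4.96 and 3.86) was above every control 12 h array (3.65, 3.72 and 3.47). Every Fk 48 h array (3.57, 3.50 and 3.19) was below every control 48 h array (3.67, 3.77 and 3.74). The Fk effect at 48 h minus that at 12 h was -1.45, and the opposite direction at the 2 times drew attention to it. The difference was not tested, and all values but 2 were under the testing level. A second probe set of the gene gave +0.99 at 12 h and -0.28 at 48 h.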

How the results depend on the processing

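With array quality weights, limma called 4 members with Fk at 12 h (DDX60, HERC5, IFIT2 and OASL), against 0. It called 4 in the mean over both times, against 0, and 14 in control cultures over time, against 1. These were 12.9%, 12.9% and 45.2% of the members tested, beside 1.45%, 4.89% and 45.6% of all genes. OASL was then +1.77, HERC5 +0.60 and IFIT2 +1.32 at 12 h (adjusted p = 0.0232, 0.0488 and 0.036). Over all genes the weights gave 156 calls at 12 h and 94 at 48 h, against 0 and 0, and 4920 over time in control cultures, against 2314. The member count in control cultures over time was 2 with a filter at log2 5, median centring, trend and robust moderation or the poly-A covariate. In these fits 6.45% or 6.67% of members were called, beside 21.8% to 22.8% of all genes. The count was 3 with the mean of a gene's probe sets (10.0%, beside 22.2%). It was 6 with only the groups compared (19.4%, beside 29.0%). Of the alternatives chosen after seeing the data, a replicate block across times gave 3 (9.68%, beside 24.0%). Leaving out Fk 12 h replicate 3 together with the poly-A covariate gave 9 (29.0%, beside 34.1%). Leaving out 1 array gave 1 to 7 calls in control cultures over time (3.23% to 22.6% of members, beside 9.83% to 31.9% of all genes). The member median was then -0.275 to +0.0928 in that comparison. With Fk it was +0.16 to +0.39 at 12 h and -0.15 to +0.11 at 48 h. With Fk at either time, in their mean or in their difference, 0 members were called. The Fk change of OASL at 48 h was +0.0926 with probe sets of 1 transcript first and +0.14 with array weights, and that of IFI44 at 48 h, when 1 array was left out, ran from -0.0943, without control 48 h replicate 1, to +0.874, without control 48 h replicate 3. With array weights it was +0.922. The cause was not tested.

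With the replicate number as a block within each time, 0 members were called at 12 h and at 48 h, with 10 members higher at 12 h at an unadjusted p under 0.05, against 6. All genes gave 1 call at 12 h, against 0, and 1264 at an unadjusted p under 0.05 in either direction, against 724. At 48 h, 2 members were higher and 1 lower at this level, against 0 and 0 in the main fit. Of all genes, 983 then differed in either direction, against 559. Signal over background limits RSAD2, USP18 and the 5 members that never reached 4. It also bears on OASL, OAS1 and IFI44L, whose lowest arrays were under 4 (3.86, 3.98 and 3.51). For OASL this was control 12 h replicate 3, and for IFI44L control 48 h replicate 2.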
